A study of Mus musculus with 18 samples.

Results

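The ATF4 and CHOP stress regulators are 10 genes of the integrated stress response: Atf4, Ddit3 (which encodes CHOP), Atf3, Atf5, Cebpb, Nupr1, Trib3, Chac1, Sesn2 and Ppp1r15a. They were taken by gene symbol from a list drawn up with earlier results of these data known. They make up 10 of the 54186 symbols in the count table. All 10 had enough counts to be tested, among 20244 genes. RNA was sequenced from pancreatic islets of 18 FVB mice aged 6 weeks, with 6 mice per genotype and 1 library per mouse. The hIAPP mice carried a transgene for human islet amyloid polypeptide (IAPP), a peptide that beta cells release with insulin and that in its human form is prone to aggregate. The rIAPP mice carried a transgene for the rodent form, which is not prone to aggregate, and WT mice carried neither. Both transgenes were driven by the insulin II promoter, so their expression is meant for beta cells, whereas each library holds RNA of all cells of the islet preparation, exocrine remnants included.

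In the integrated stress response, kinases that sense stress phosphorylate the translation factor eIF2, which lowers protein synthesis while favouring translation of the Atf4 message. ATF4 then activates genes for amino acid supply and for further regulators, among them CHOP. Beta cells carry a heavy load of secretory protein folding, and the endoplasmic reticulum kinase PERK feeds this pathway in them. Since ATF4 is controlled largely at translation, the level of its RNA is not a measure of its protein.

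Promoters of the members were searched for the letters that the pathway's own factors are known to bind. RefSeq windows (GRCm38.p6) of 300 bases, from 250 before to 50 after the start of transcription, were found for all 10 members, 11 windows in all because Atf5 has 2. The C/EBP-ATF response element core, TGATGNAA, was searched on both strands. It was in 4 of the 11 windows, those of Chac1, Atf3, Nupr1 and Trib3, and in 3.97% of the 32851 mouse promoter windows. The cAMP response element TGACGTCA was in the Ppp1r15a window alone among the 11, and in 1.79% of all windows. The shorter site TGACGT, which the full element holds on each strand, was in the windows of Ppp1r15a and Atf3 and in 7.51% of all. The 5 windows that held either motif are printed 5′ to 3′ on the gene's own strand, with these matches in capitals. They lie at chr2:119350992-119351291 (Chac1, plus strand), chr1:191183284-191183583 (Atf3, minus), chr7:126625421-126625720 (Nupr1, minus), chr2:152344011-152344310 (Trib3, minus) and chr7:45526219-45526518 (Ppp1r15a, minus). TTGCATCA and TTACATCA are the response element core and ACGTCA the shorter site, each read from the other strand.
Chac1: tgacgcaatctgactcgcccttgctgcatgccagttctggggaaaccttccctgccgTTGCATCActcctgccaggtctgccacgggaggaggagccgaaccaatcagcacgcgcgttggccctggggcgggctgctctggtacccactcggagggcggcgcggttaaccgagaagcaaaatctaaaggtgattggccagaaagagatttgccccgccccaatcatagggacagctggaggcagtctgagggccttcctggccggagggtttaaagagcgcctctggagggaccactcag
Atf3: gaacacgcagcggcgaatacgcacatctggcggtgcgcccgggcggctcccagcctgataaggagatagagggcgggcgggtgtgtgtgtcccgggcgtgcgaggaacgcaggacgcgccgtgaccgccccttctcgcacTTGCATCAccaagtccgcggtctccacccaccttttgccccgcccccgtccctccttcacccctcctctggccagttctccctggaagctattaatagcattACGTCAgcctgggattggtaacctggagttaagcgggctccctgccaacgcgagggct
Nupr1: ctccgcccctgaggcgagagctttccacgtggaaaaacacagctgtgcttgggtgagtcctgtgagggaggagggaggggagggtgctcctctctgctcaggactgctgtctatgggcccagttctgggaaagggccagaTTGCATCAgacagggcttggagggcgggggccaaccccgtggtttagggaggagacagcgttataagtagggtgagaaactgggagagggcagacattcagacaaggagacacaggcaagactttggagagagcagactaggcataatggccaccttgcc
Trib3: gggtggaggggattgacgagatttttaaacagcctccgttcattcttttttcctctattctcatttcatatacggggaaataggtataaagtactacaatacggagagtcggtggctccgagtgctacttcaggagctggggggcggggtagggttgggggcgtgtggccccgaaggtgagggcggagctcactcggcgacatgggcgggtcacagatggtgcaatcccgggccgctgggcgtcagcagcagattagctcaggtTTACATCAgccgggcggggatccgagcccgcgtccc
Ppp1r15a: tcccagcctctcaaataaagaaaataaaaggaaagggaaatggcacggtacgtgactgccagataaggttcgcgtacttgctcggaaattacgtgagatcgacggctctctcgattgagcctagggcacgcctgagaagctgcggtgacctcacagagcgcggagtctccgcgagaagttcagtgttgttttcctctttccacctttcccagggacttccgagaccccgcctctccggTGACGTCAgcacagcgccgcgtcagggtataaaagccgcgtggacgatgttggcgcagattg
The core's first base on the gene's strand lay 193 bases before the start in Chac1 and 110 before it in both Atf3 and Nupr1. In Trib3 it lay 14 bases after the start. Matches are a description of these letters and show no binding.

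On the GRCm38 build with GENCODE M21 gene models, Atf4 lies at chr15:80255184-80257541, Ddit3 at chr10:127290774-127296288, Atf3 at chr1:191170296-191218039 and Sesn2 at chr4:132492032-132510501. Chromosome 2 holds Chac1 (chr2:119351229-119354381), Trib3 (chr2:152337422-152344032) and Cebpb (chr2:167688915-167690418). Chromosome 7 holds Atf5 (chr7:44812256-44816658), Ppp1r15a (chr7:45522916-45526268) and Nupr1 (chr7:126623249-126630861). Exons of 4 members overlap exons of a gene on the opposite strand. The overlap is 20.7% of the exon length of Cebpb (with Tmem189) and 4.11% of Atf5 (with Il4i1 and Nup62). For Ddit3 it is 3.97% with Mars and 0.759% with Gm4189, and for Ppp1r15a 0.409% with Tulp2. The gene models hold 2 gene IDs named Ddit3. How reads in these stretches were assigned is not given in the sources used here, so the counts of these 4 genes are uncertain. The size of that uncertainty was not measured, and the share of exon length does not bound it.

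Levels are given as CPM (counts-per-million), scaled by the total of the library and its TMM factor. Total counts were 110 to 166.2 M per library, so that even the lowest member value, 0.724 CPM for Trib3, rests on 95 counts. Each library is a separate mouse, and p-values measure the spread between mice. Acinar cell markers (15 genes of digestive enzymes and their regulators) summed to 0.102% to 0.432% of counts in WT, 0.281% to 2.02% in hIAPP and 0.463% to 2.05% in rIAPP. Macrophage markers (13 genes) summed to 0.0147% to 0.0170% in WT, 0.0387% to 0.0775% in hIAPP and 0.00989% to 0.0116% in rIAPP. Beta cell markers (10 genes) summed to 12.7% to 15.9%, 6.87% to 12.6% and 7.40% to 10.2% in the same order, and no marker of these lists was at 0 in all libraries. The symbol Iapp, to which reads of the rodent transgene may be assigned, had a mean of 34206 ± 5459 CPM (SD, n = 6) in WT, 25572 ± 3782 in hIAPP and 39144 ± 3728 in rIAPP.

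The first comparison asks which stress regulators differ when the aggregation-prone human peptide is expressed. In hIAPP islets, 9 of the 10 regulators rose against WT at an edgeR adjusted p under 0.05, while 8.31% of all tested genes did. None of the 10 was lower (0 by edgeR, DESeq2 and limma-voom, and 0 at an unadjusted p under 0.05), against 7.53% of all genes. In 8 of the 10 every hIAPP library lay above every WT library, which held for 3.74% of all genes. The median log2 fold change was 1.20 over the 10 and -0.0098 over all tested genes. Nupr1 and Trib3 moved farthest, by 9.93-fold and 8.13-fold, and Ppp1r15a did not pass the test.

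The second comparison, of the rodent peptide with WT, asks what a transgene of the same promoter does without an aggregation-prone product. All 10 regulators rose in rIAPP islets, against 14.1% of all tested genes, and none was lower (0 by edgeR, DESeq2 and limma-voom, and 0 at an unadjusted p under 0.05), against 12.6%. Every rIAPP library lay above every WT library in 7 of the 10 and in 8.13% of all genes. The median log2 fold change of the 10 was 0.78, and that of all tested genes was -0.0145. Both comparisons use the same 6 WT libraries, so their results are not independent of each other.

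The direct comparison asks where the islets of the 2 transgenic genotypes differ. These may differ in more than the peptide, for instance in transgene level, and no level of the human transgene is given here. Whether a difference between them comes from the peptide was not tested. Only Ddit3 and Trib3 of the 10 passed, both higher in hIAPP, against 13.5% of all tested genes that were higher. None of the 10 was lower (0 by edgeR, DESeq2 and limma-voom, and 0 at an unadjusted p under 0.05), against 14.1% of all genes. In Ddit3 alone every hIAPP library was above every rIAPP library, which held for 6.52% of all genes, and for no regulator was every hIAPP library below, which held for 6.85%. A count of 2 in 10 is close to the share over all genes and is no result about the group. For the other 8 the 95% interval of the log2 difference is given with each gene. Beta cell markers also set the 2 transgenic genotypes apart. Of these 10 markers, 9 passed with more RNA in hIAPP and 1 with less. The part of this in the Ddit3 and Trib3 differences was not tested. In a bulk library, fewer cells of a type and less RNA per cell cannot be told apart, for these and all later values.

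**Figure D1:**
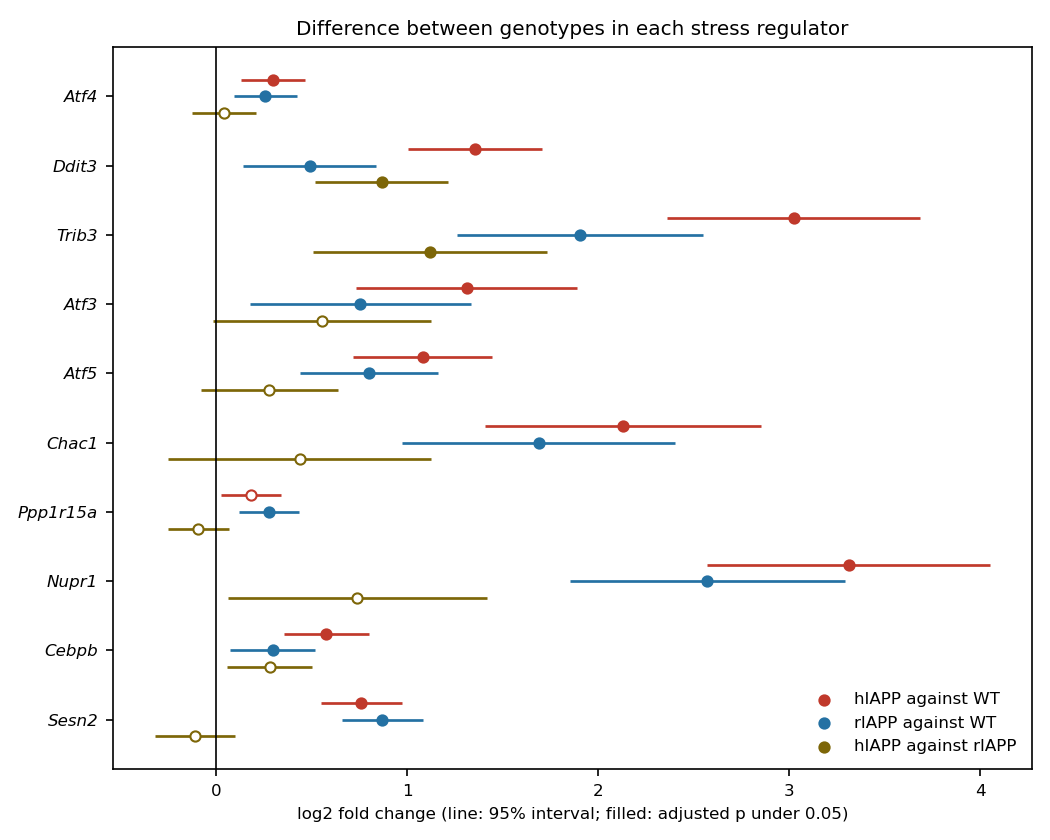
Fitted log2 fold change (horizontal axis) of each of the 10 regulators in 3 comparisons, with lines for the 95% interval and filled points for an edgeR adjusted p under 0.05. The points against WT lie above 0 for every gene in both transgenic genotypes, and in the direct comparison only those of Ddit3 and Trib3 are filled.

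Among the transcription factors, Atf4 encodes the factor at the head of the response. Its level was 139 CPM in the lowest, 149 in the median and 158 in the highest WT library. In hIAPP the values were 171, 180 and 210 CPM. In rIAPP they were 156, 172 and 218 CPM. The hIAPP libraries all lay above WT, while the rIAPP libraries overlapped both, with 3 of them within the WT range. Atf4 rose by a log2 fold change of 0.30 ± 0.08 in hIAPP (SE, edgeR adjusted p = 0.0146) and of 0.26 ± 0.08 in rIAPP (edgeR adjusted p = 0.0197). Between the transgenes the log2 difference was 0.04 (95% interval -0.13 to 0.21, edgeR adjusted p = 0.754). The rise in rIAPP lost its call without rIAPP 4, where it was 0.19 (edgeR adjusted p = 0.0561).

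Ddit3 encodes CHOP, a factor known for driving cell death when stress lasts. WT libraries held 11.9 CPM at the lowest, 15.1 at the median and 19.0 at the highest. The hIAPP libraries held 28.4, 34.3 and 65.0 CPM, and the rIAPP libraries 17.3, 21.5 and 24.7 CPM. All 6 hIAPP libraries were above all 12 others, whereas rIAPP and WT overlapped. Ddit3 rose by 1.36 ± 0.17 on the log2 scale in hIAPP against WT (SE, edgeR adjusted p = 1.78e-05) and by 0.49 ± 0.17 in rIAPP against WT (edgeR adjusted p = 0.0329), a call lost in 8 of 24 alternative runs. The direct difference was 0.87 ± 0.17 (edgeR adjusted p = 4.89e-04), or 1.82-fold. It was 0.57 without hIAPP 5 and hIAPP 6 (edgeR adjusted p = 0.00139). Macrophage markers also set all hIAPP libraries above all others, and with their score as a covariate, an alternative chosen after seeing the data, the difference was -0.43 (edgeR adjusted p = 0.753). As the scores of the 2 genotypes do not overlap, genotype and macrophage content cannot be told apart in that fit.

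Atf3 encodes a factor of the same family, often a repressor, that many stresses induce. It was scarce, at 1.07, 1.40 and 1.83 CPM (lowest, median, highest) in WT, 1.65, 2.76 and 7.95 CPM in hIAPP, and 1.84, 2.27 and 2.85 CPM in rIAPP. The lowest hIAPP library fell within the WT range and hIAPP 5 stood at the top, while every rIAPP library was above WT, the lowest by a small margin. Atf3 rose by 1.31 ± 0.28 on the log2 scale in hIAPP (SE, edgeR adjusted p = 0.00314) and by 0.76 ± 0.28 in rIAPP (edgeR adjusted p = 0.0477). The rIAPP call was lost in 12 of 24 alternative runs. Between the transgenes the difference was 0.55 (95% interval -0.01 to 1.12, edgeR adjusted p = 0.143).

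Atf5 encodes a factor that, like ATF4, is translated preferentially under stress. Its level was 33.3, 40.0 and 44.3 CPM in WT, 50.3, 73.7 and 123 CPM in hIAPP, and 50.6, 71.4 and 82.2 CPM in rIAPP. Both transgenic groups lay wholly above WT and overlapped each other, with hIAPP 5 and hIAPP 6 above all rIAPP libraries. The log2 rise was 1.08 ± 0.17 in hIAPP (SE, edgeR adjusted p = 2.70e-04) and 0.80 ± 0.17 in rIAPP (edgeR adjusted p = 0.00142). Their difference was 0.28 (95% interval -0.08 to 0.64, edgeR adjusted p = 0.250), and -0.08 without hIAPP 5 and hIAPP 6.

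Cebpb encodes C/EBP-beta, a partner with which ATF4 and CHOP form dimers. Libraries ran from 5.24 over 6.07 to 7.64 CPM in WT, from 8.10 over 9.11 to 10.8 CPM in hIAPP and from 6.07 over 7.49 to 8.93 CPM in rIAPP (lowest, median, highest). Only the hIAPP libraries were clear of WT. Cebpb rose by 0.58 ± 0.11 on the log2 scale in hIAPP (SE, edgeR adjusted p = 9.87e-04). The rise of 0.30 ± 0.11 in rIAPP (edgeR adjusted p = 0.0443) was lost in 14 of 24 alternative runs. The direct difference of 0.28 (95% interval 0.06 to 0.50, edgeR adjusted p = 0.0557) missed the threshold and passed it in 8 of the 24 runs.

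Nupr1 encodes a small stress-induced nuclear protein that binds chromatin, and it is also well known from the exocrine pancreas. WT libraries ran from 8.63 over 15.4 to 20.7 CPM, hIAPP libraries from 74.1 over 92.2 to 298 CPM and rIAPP libraries from 52.0 over 80.3 to 123 CPM. No transgenic library came near WT, and hIAPP 5 (225 CPM) and hIAPP 6 stood above the remaining hIAPP libraries. Nupr1 rose by 3.31 ± 0.35 on the log2 scale in hIAPP (SE, edgeR adjusted p = 3.08e-06) and by 2.57 ± 0.34 in rIAPP (edgeR adjusted p = 8.69e-06). Acinar markers summed highest in hIAPP 6 (2.02% of counts) and hIAPP 5 (1.14%) among hIAPP libraries, and in rIAPP 2 (2.05%) and rIAPP 1 (1.51%) among rIAPP libraries, the libraries in which Nupr1 was highest too. The orders of the remaining libraries matched only in part. hIAPP 1 had the lowest acinar sum in hIAPP (0.281%) with Nupr1 at 93.4 CPM, above hIAPP 3 (0.589%, 74.1 CPM). rIAPP 5 had the lowest acinar sum in rIAPP (0.463%) with 79.2 CPM, above rIAPP 4 (0.967%, 66.7 CPM). The part of acinar cells in the Nupr1 values was not tested. Without hIAPP 5 and hIAPP 6 the rise of Nupr1 in hIAPP was 2.55. With the acinar score as a covariate the rises were 2.20 (edgeR adjusted p = 3.50e-04) and 1.25 (edgeR adjusted p = 0.0247). The direct difference of 0.74 (95% interval 0.06 to 1.42, edgeR adjusted p = 0.0994) became 0.94 in that fit (edgeR adjusted p = 0.00406) and -0.03 without hIAPP 5 and hIAPP 6.

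**Figure D2:**
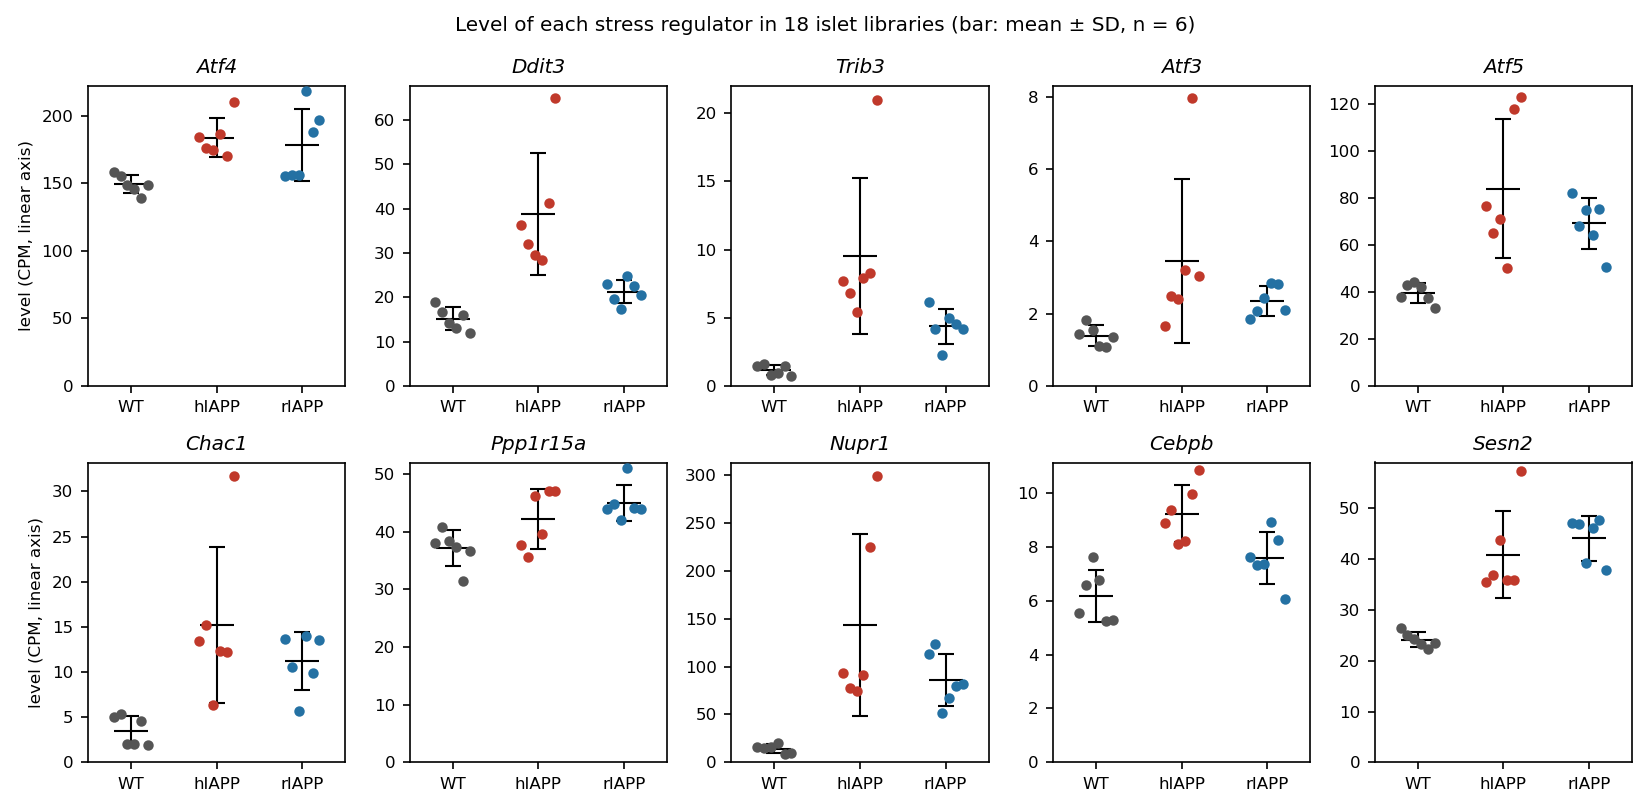
Level of each regulator (CPM, linear axis from 0) in 18 libraries, 1 point per mouse, with the mean and SD of each genotype (n = 6). In Ddit3 all 6 hIAPP points lie above all others, while for Nupr1, Trib3 and Chac1 both transgenic groups lie above WT and overlap each other.

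Of the effectors, Trib3 encodes a pseudokinase that CHOP and ATF4 induce and that restrains both ATF4 and insulin signalling through AKT. In WT it had 0.724, 1.20 and 1.59 CPM at the lowest, median and highest. In hIAPP it had 5.41, 7.78 and 21.0 CPM, and in rIAPP 2.23, 4.37 and 6.18 CPM. All transgenic libraries exceeded WT, hIAPP 6 stood far above the other hIAPP libraries, and hIAPP and rIAPP overlapped. Trib3 rose by 3.02 ± 0.32 on the log2 scale in hIAPP (SE, edgeR adjusted p = 2.48e-06) and by 1.91 ± 0.31 in rIAPP (edgeR adjusted p = 8.06e-05). With the acinar score as a covariate the rise in hIAPP was 2.43 (edgeR adjusted p = 0.00149) and the value in rIAPP 1.22 (edgeR adjusted p = 0.102). The difference between the transgenes, with no covariate, was 1.12 ± 0.29 (edgeR adjusted p = 0.00681). Without hIAPP 5 and hIAPP 6 it was 0.66 and lost the call (edgeR adjusted p = 0.0530).

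Chac1 encodes an enzyme that breaks down glutathione. Its values were 1.88, 3.30 and 5.31 CPM in WT, 6.30, 12.9 and 31.7 CPM in hIAPP, and 5.67, 12.1 and 14.0 CPM in rIAPP. In WT 3 libraries (WT 1, WT 2 and WT 5) lay between 4.54 and 5.31 CPM and 3 between 1.88 and 2.06 CPM. The libraries WT 1, WT 2 and WT 5 were also above the other WT libraries for Trib3 and Ddit3. All transgenic libraries were above every WT library for Chac1. The log2 rise was 2.13 ± 0.35 in hIAPP (SE, edgeR adjusted p = 3.08e-04) and 1.69 ± 0.34 in rIAPP (edgeR adjusted p = 7.98e-04). The transgenes differed by 0.44 (95% interval -0.25 to 1.13, edgeR adjusted p = 0.359).

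Sesn2 encodes sestrin 2, a leucine sensor that restrains mTORC1. WT libraries had 22.2, 23.9 and 26.4 CPM, hIAPP libraries 35.4, 36.4 and 57.2 CPM, and rIAPP libraries 37.8, 46.4 and 47.6 CPM. Both transgenic groups were clear of WT, and the median was higher in rIAPP than in hIAPP. Sesn2 rose by 0.76 ± 0.10 on the log2 scale in hIAPP (SE, edgeR adjusted p = 4.27e-05) and by 0.87 ± 0.10 in rIAPP (edgeR adjusted p = 1.62e-06). Between them the difference was -0.11 (95% interval -0.32 to 0.10, edgeR adjusted p = 0.464). Without hIAPP 6, the library at 57.2 CPM, it was -0.23 and passed (edgeR adjusted p = 0.0246).

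Ppp1r15a encodes GADD34, the phosphatase subunit that reverses the phosphorylation of eIF2 and so ends the response. It had 31.4, 37.7 and 40.8 CPM in WT, 35.7, 42.9 and 47.0 CPM in hIAPP, and 42.1, 44.0 and 51.0 CPM in rIAPP. The hIAPP libraries overlapped WT, with 3 inside the WT range and 3 above it, and the rIAPP libraries lay just above WT. In hIAPP the log2 fold change was 0.18 ± 0.08 (SE, edgeR adjusted p = 0.106), short of the threshold. In rIAPP Ppp1r15a rose by 0.28 ± 0.08 (edgeR adjusted p = 0.00910). The 2 transgenes differed by -0.09 (95% interval -0.25 to 0.07, edgeR adjusted p = 0.411).

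Divided by exon length, levels can be set beside each other across genes. On the scale of mean CPM per kilobase, Atf4 came first in each genotype, at 63.3 in WT, 77.9 in hIAPP and 75.8 in rIAPP. Nupr1 was lower than 5 other members in WT, at 5.74 ± 1.78 CPM per kilobase (SD, n = 6). In hIAPP it stood at 57.0 ± 37.7, within the spread of Atf5 (42.1 ± 14.9), and the medians of the pair were 36.7 and 37.0. In rIAPP it stood at 34.1 ± 10.8, close to Atf5 (34.7 ± 5.53), from which it did not differ beyond the spread. Trib3 was last in WT at 0.549 ± 0.180 CPM per kilobase, next to Atf3 at 0.646 ± 0.130, with ranges that overlapped. In hIAPP and rIAPP Atf3 was last, at 1.60 ± 1.05 and 1.09 ± 0.195. The regulator with the most RNA per length, Atf4, was thus among those with the smallest log2 fold changes.

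Within a genotype the regulators differed between mice. For 8 of the 10, all but Atf4 and Cebpb, the SD relative to the mean was largest in hIAPP. The SD was 60.1% of the mean for Trib3 in hIAPP, against 32.9% in WT and 29.5% in rIAPP. For Nupr1 it was 66.2% in hIAPP, 30.9% in WT and 31.6% in rIAPP, and for Ddit3 it was 35.3%, 17.1% and 12.5%. Without hIAPP 6 the other 5 hIAPP libraries ranged from 5.41 to 8.30 CPM for Trib3, and the SD was 15.7% of the mean for Ddit3 and 56.6% for Nupr1. Without hIAPP 5 and hIAPP 6 it was 16.3% for Trib3, 11.2% for Ddit3 and 11.3% for Nupr1, each below WT and rIAPP. Those 2 libraries were the highest in hIAPP for these genes, so leaving them out narrows the spread by choice. WT and rIAPP kept all 6 libraries. Without hIAPP 6 the spread was largest in hIAPP for 4 of the 10 rather than 8, and without both libraries also for 4. These differences in spread were not tested. The matching shares over all genes were not computed for the spread or for the library ranks that follow. The counts are therefore no result about the regulators as a group. The library hIAPP 6 was the highest of the hIAPP libraries for 8 of the 10 regulators and hIAPP 5 for the other 2, Atf3 and Ppp1r15a. Among rIAPP libraries, rIAPP 4 was highest for 6 of the 10. WT 5 or WT 6 was the lowest WT library for each of the 10. Each hIAPP library was above every WT library for 8 to 10 regulators, and each rIAPP library for 7 to 10.

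**Figure D3:**
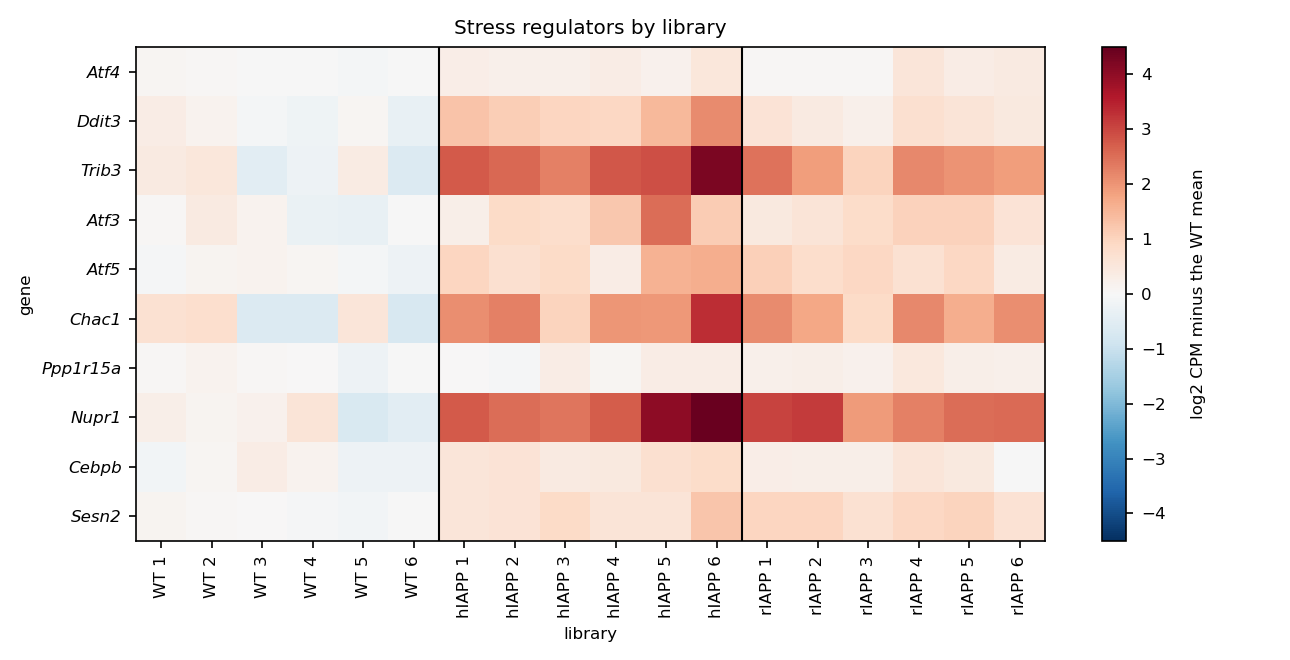
Each regulator in each library as log2 CPM minus the WT mean of that gene (colour scale), with libraries in columns and black lines between genotypes. Nupr1, Trib3 and Chac1 carry the strongest colours in both transgenic groups, and hIAPP 5 and hIAPP 6 the strongest Nupr1 values of all.

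The same 2 hIAPP libraries also differed from the other 4 in cell type markers. Acinar markers summed to 1.14% of counts in hIAPP 5 and 2.02% in hIAPP 6, macrophage markers to 0.0775% and 0.0663%, and beta cell markers to 6.87% and 8.42%, the lowest of the genotype. Across genotypes, stellate and mesenchymal markers (8 genes) shared the regulators' direction against WT, but their median sum was higher in rIAPP than in hIAPP. They summed to 0.0412% to 0.0692% of counts in WT, 0.0599% to 0.127% in hIAPP and 0.0988% to 0.178% in rIAPP, with 6 of the 8 higher than WT in hIAPP and 7 in rIAPP. Endothelial markers (8 genes) summed to 0.0646% to 0.0734% in WT, 0.0575% to 0.0661% in hIAPP and 0.0807% to 0.0906% in rIAPP, where all 8 rose. The part of these cell types in the regulators' values was not tested. Without both libraries all 9 calls of hIAPP over WT remained, with log2 fold changes from 0.28 (Atf4) to 2.58 (Trib3). With the acinar score as a covariate, 4 of the 9 calls remained (Ddit3, Trib3, Nupr1 and Sesn2), while calls over all genes went from 1683 higher and 1525 lower to 473 and 279. In rIAPP against WT, where the acinar scores do not overlap, Nupr1 and Sesn2 of the 10 passed with that covariate. Over all genes 1144 passed as higher and 874 as lower in that fit. Genotype and acinar content cannot be told apart in it for any of the 10. With the macrophage score as a covariate, none of the 10 passed in hIAPP against WT (0 by edgeR, with 0 higher and 1 lower at an unadjusted p under 0.05), and over all genes only 5 passed as higher and 16 as lower. The macrophage scores of hIAPP and WT do not overlap either, so that fit cannot tell genotype from macrophage content.

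**Figure D4:**
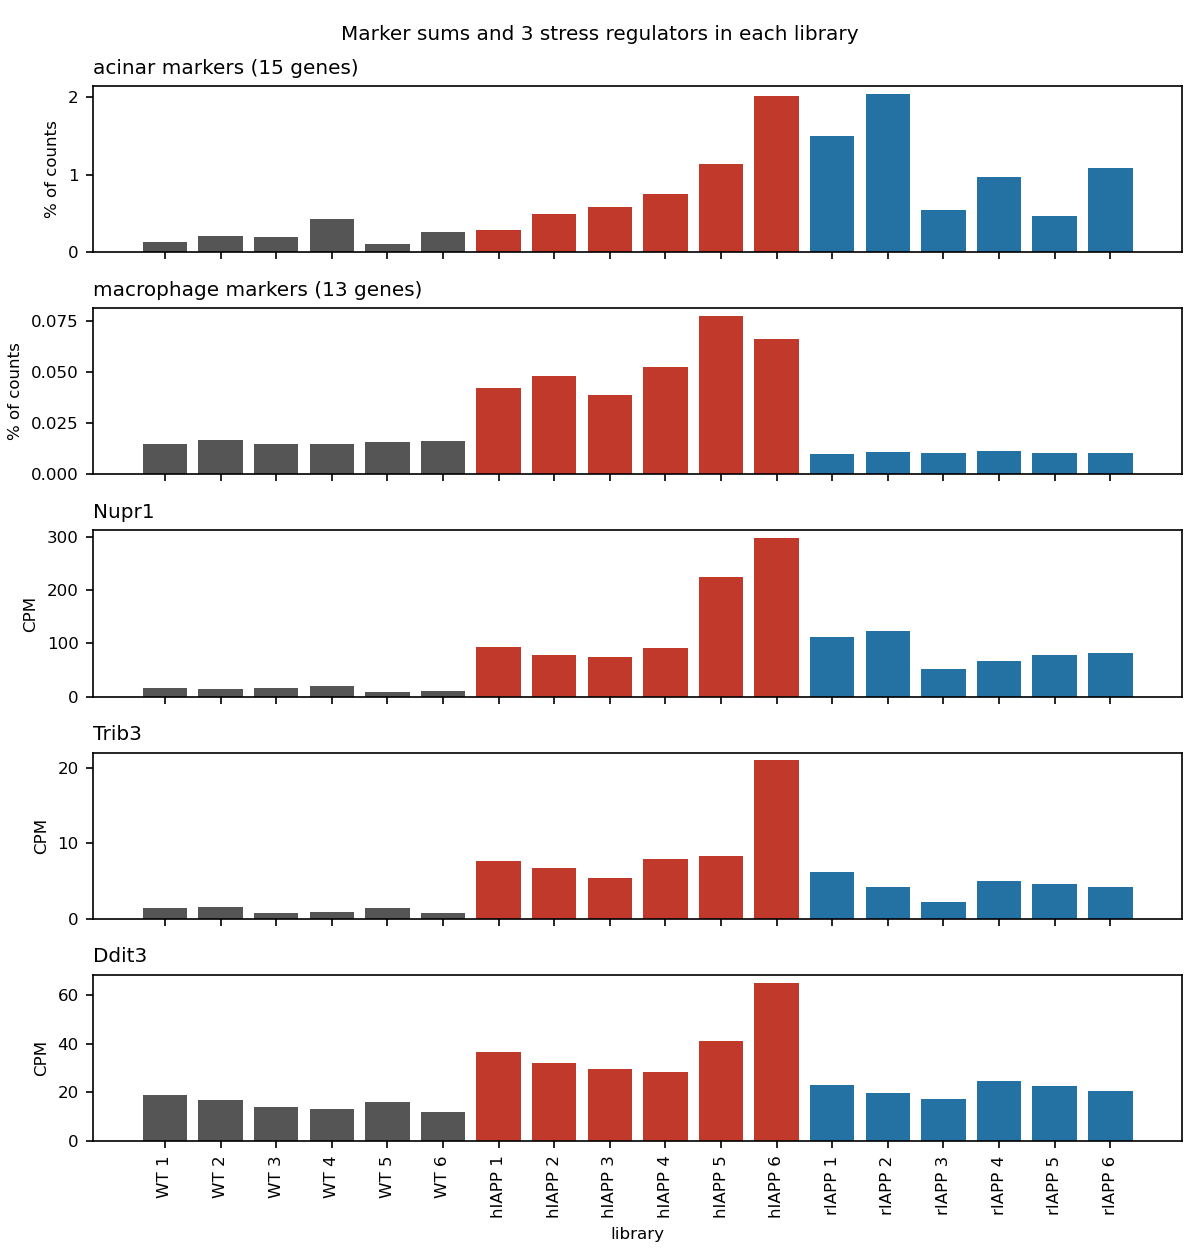
Summed acinar and macrophage markers (percent of counts) above the levels of Nupr1, Trib3 and Ddit3 (CPM) in each of the 18 libraries, with WT in grey, hIAPP in red and rIAPP in blue and all bars from 0. Acinar sums overlap between hIAPP and rIAPP, macrophage sums of hIAPP lie above all others, and hIAPP 6 has the highest bar of all 3 regulators.

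Further targets of ATF4 and CHOP, 34 genes of amino acid supply, redox balance and secretion, were examined beside the regulators. In hIAPP 24 of the 34 rose (70.6%, against 8.31% of all genes) and none fell (0 also by DESeq2 and limma-voom, and 2 at an unadjusted p under 0.05), with a median log2 fold change of 0.54. Pycr1, of proline synthesis, rose by 1.09 ± 0.11 (SE, edgeR adjusted p = 9.53e-07), and Eif4ebp1, a brake on translation, by 1.36 ± 0.17 (edgeR adjusted p = 2.05e-05). Slc7a11, the cystine importer, rose by 2.19 ± 0.28 (edgeR adjusted p = 2.78e-05), and Mthfd2, of mitochondrial folate metabolism, by 1.0 ± 0.13 (edgeR adjusted p = 2.94e-05). With the acinar score as a covariate 7 of the 34 passed as higher, beside 473 of the 20244 tested genes. In that fit 16 of the 34 were higher at an unadjusted p under 0.05. With the macrophage score none of the 34 passed as higher (0 by edgeR, and 0 at an unadjusted p under 0.05), beside 5 of all tested genes.

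In rIAPP 23 of these 34 targets rose (67.6%, against 14.1% of all genes) and 4 fell (11.8%, against 12.6%), with a median of 0.49. Pycr1 rose by 1.31 ± 0.11 on the log2 scale (SE, edgeR adjusted p = 1.26e-08), Eif4ebp1 by 1.38 ± 0.17 (edgeR adjusted p = 3.09e-06) and Herpud1, of endoplasmic reticulum-associated degradation, by 0.73 ± 0.09 (edgeR adjusted p = 5.62e-06). The tryptophanyl-tRNA synthetase gene Wars was lower by a log2 fold change of -0.54 ± 0.05 (edgeR adjusted p = 2.38e-07). The other genes that fell, named after their values were seen, were Stc2 (-0.94), Ero1a (-0.26) and Wfs1 (-0.23). With the acinar score as a covariate 4 of the 34 passed as higher, beside 1144 of the 20244 tested genes. Between the transgenes 7 targets were higher (20.6%, against 13.5% of all genes) and 1 lower (2.94%, against 14.1%) in hIAPP, with a median of 0.08. Without hIAPP 5 and hIAPP 6, 5 were higher and 5 lower, and without either alone 2 were lower. By p value Stc2, a secreted glycoprotein, came first, at 1.80 ± 0.17 (edgeR adjusted p = 1.14e-07), and Wars next, at 0.41 ± 0.05 (edgeR adjusted p = 8.99e-06).

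Upstream of the regulators, the eIF2 kinases and translation factors (18 genes) had calls in both directions. In hIAPP against WT 2 were higher (11.1%, against 8.31% of all genes) and 3 lower (16.7%, against 7.53%), with a median of -0.02. In rIAPP against WT 4 were higher (22.2%, against 14.1%) and 2 lower (11.1%, against 12.6%), with a median of 0.01. Over 24 alternative runs the 4 counts, in this order, ranged from 0 to 4, 0 to 6, 1 to 8 and 0 to 3. In hIAPP against rIAPP 1 was higher (5.56%, against 13.5% of all genes) and 6 were lower (33.3%, against 14.1%). Those counts ranged from 0 to 2 and from 1 to 6 over the 24 runs. Eif2ak3, which encodes PERK, rose in rIAPP by 0.41 ± 0.06 on the log2 scale (SE, edgeR adjusted p = 2.60e-05) and was lower in hIAPP than in rIAPP by -0.36 ± 0.06 (edgeR adjusted p = 9.99e-05). Eif2ak2, the kinase that senses double-stranded RNA, fell in hIAPP, with a log2 fold change of -0.54 ± 0.10 against WT (edgeR adjusted p = 0.00120).

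The other arms of the unfolded protein response, led by IRE1 and ATF6, were covered by 20 genes. Of these 5 rose in hIAPP against WT (25.0%, against 8.31% of all genes), with a median of 0.08. In rIAPP 7 rose (35.0%, against 14.1%) and 1 fell (5%, against 12.6%), with a median of 0.13. In the fit with the acinar score 2 passed as higher in hIAPP and 1 in rIAPP, beside 473 and 1144 of the 20244 tested genes. Derl3, of endoplasmic reticulum-associated degradation, rose by 1.09 ± 0.16 in hIAPP (SE, edgeR adjusted p = 1.04e-04) and by 1.01 ± 0.16 in rIAPP (edgeR adjusted p = 6.11e-05). Ern1, which encodes IRE1-alpha, rose by 0.80 ± 0.14 in hIAPP (edgeR adjusted p = 5.59e-04). Of 10 genes of mitochondrial stress, 2 rose (20%, against 8.31% of all genes) and 1 fell (10%, against 7.53%) in hIAPP. Over 24 alternative runs these 2 counts ranged from 0 to 4 and from 0 to 2. None passed in rIAPP in either direction (0 by edgeR, DESeq2 and limma-voom, and 0 at an unadjusted p under 0.05). Of all genes 14.1% were higher and 12.6% lower there.

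Among 38 tested bZIP relatives and partners of the regulators, 6 rose (15.8%, against 8.31% of all genes) and 1 fell (2.63%, against 7.53%) in hIAPP. In rIAPP 3 rose (7.89%, against 14.1%) and 6 fell (15.8%, against 12.6%). The 6 that rose in hIAPP became 2 with the acinar score as a covariate, 3 without hIAPP 6 and 2 without hIAPP 5 and hIAPP 6. Over all genes 1683 were higher in the main fit, and 473, 1333 and 1037 in these runs. Cebpa, a C/EBP relative of Cebpb, rose by 0.87 ± 0.12 on the log2 scale in hIAPP against WT (SE, edgeR adjusted p = 4.27e-05) and was higher in hIAPP than in rIAPP by 0.90 ± 0.12 (edgeR adjusted p = 6.96e-06). Cebpg, which pairs with ATF4, rose by 0.55 ± 0.08 in hIAPP (edgeR adjusted p = 8.27e-05). The beta cell factor Mafa was lower by -1.29 ± 0.18 in hIAPP (edgeR adjusted p = 8.61e-05) and by -2.62 ± 0.19 in rIAPP (edgeR adjusted p = 2.79e-09).

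Close relatives of the effectors were examined beside them. Trib2, the relative of Trib3, was lower in hIAPP than in WT by -0.24 ± 0.06 on the log2 scale (SE, edgeR adjusted p = 0.00724), and Trib1 did not pass (0.11, edgeR adjusted p = 0.513). Sesn3, the relative of Sesn2, was at -0.02 in hIAPP (edgeR adjusted p = 0.913) and fell in rIAPP, with -0.34 ± 0.07 (edgeR adjusted p = 0.00147). Sesn1 did not pass against WT in either genotype (0.11 and 0.03). Chac2, the relative of Chac1, was lower in hIAPP by -0.29 ± 0.09 (edgeR adjusted p = 0.0412). Ppp1r15b, the constitutive counterpart of Ppp1r15a, rose by 0.14 ± 0.04 in hIAPP (edgeR adjusted p = 0.0366) and by 0.19 ± 0.04 in rIAPP (edgeR adjusted p = 0.00369).

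Genes that share stimuli with the regulators were set beside them. Of 8 genes listed as cell death targets of CHOP, 2 rose in hIAPP, Bbc3 by 0.56 ± 0.13 on the log2 scale (SE, edgeR adjusted p = 0.00647) and Pmaip1 by 0.73 ± 0.22 (edgeR adjusted p = 0.0294). These 2 are 25.0% of the list, against 8.31% of all genes, and 3 (37.5%, against 14.1%) rose in rIAPP. Bbc3 and Pmaip1 encode PUMA and NOXA, which promote apoptosis. The hIAPP count was 1 without any one of WT 2, WT 3, WT 4, WT 6, hIAPP 5 and hIAPP 6, and it moved by over 1.5 times in 11 of 24 alternative runs. It was 0 by edgeR with the acinar score as a covariate, where 2 had an unadjusted p under 0.05. Among 10 p53 targets, a pathway that also acts on Sesn2 and Atf3, 4 rose in hIAPP and 4 in rIAPP (40.0%, against 8.31% and 14.1% of all genes), with Cdkn1a at 1.10 ± 0.26 (edgeR adjusted p = 0.00675) and 0.92 ± 0.26 (edgeR adjusted p = 0.0112). In the acinar fit 1 p53 target passed as higher in each genotype, beside 473 (hIAPP) and 1144 (rIAPP) of all tested genes. Immediate early genes (15 genes), which handling of tissue can induce together with Atf3 and Ppp1r15a, rose in 2 cases in hIAPP (13.3%, against 8.31% of all genes) and 1 in rIAPP (6.67%, against 14.1%). Over 24 alternative runs the hIAPP count ranged from 0 to 2 and the rIAPP count from 1 to 4. In hIAPP it was 0 without hIAPP 5 and 0 without hIAPP 6, and limma-voom gave 0 higher and 1 lower. The summed level of the immediate early genes was 324 to 487 CPM in WT, 310 to 616 in hIAPP and 419 to 577 in rIAPP. These ranges overlapped.

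**Figure D5:**
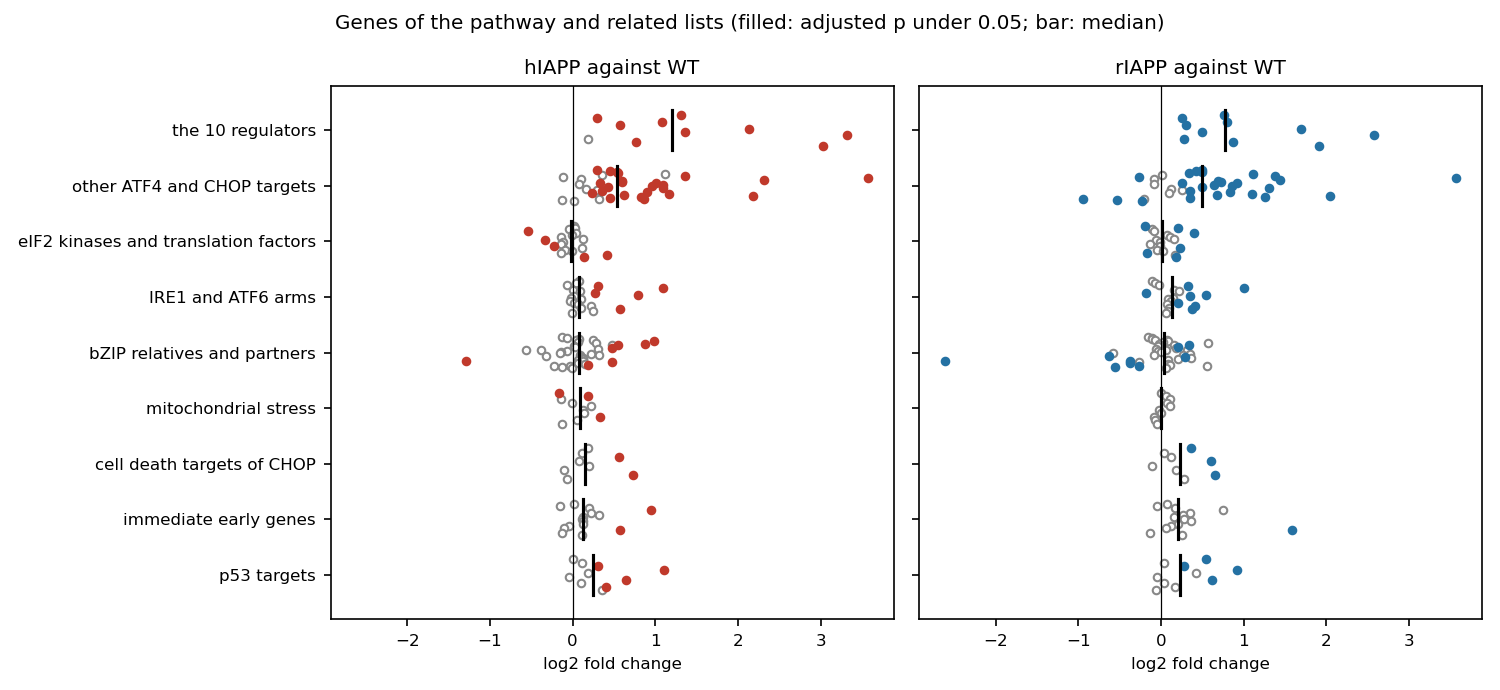
Fitted log2 fold change (horizontal axis) of every tested gene of 9 lists against WT, for hIAPP on the left and rIAPP on the right, with filled points for an edgeR adjusted p under 0.05 and a bar at the median. The medians of the 10 regulators (1.20 and 0.78) and of the other ATF4 and CHOP targets (0.54 and 0.49) lie farther from 0 than those of the other lists.

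The genes most like each regulator across the 18 libraries were found by the root mean square difference of log2 CPM after each gene was centred on its mean, over 12889 genes. For Trib3 they were Chac1 (0.434), Nupr1 (0.562) and Slc7a11 (0.569), where the spread of Trib3 itself, measured the same way, was 1.31. For Nupr1 they were Fut1 (0.401), Trib3 and Slc7a11 (spread 1.48), and for Chac1 they were Trib3, Slc7a11 and Steap1 (spread 1.10). The genes nearest to Sesn2 were Gpt2 (0.167), Slc7a1 and Mthfd2 (spread 0.419), and those nearest to Atf5 were Ern1 (0.195), Mthfd2 and Trp53cor1 (spread 0.533). Ddit3 had other neighbours, Hmox1 (0.212), Irf8 (0.245) and C1rl (0.269), with a spread of 0.611. Those of Atf3 were Lgals1 (0.333), Rab7b and Fabp5 (spread 0.651), and those of Cebpb were Mfsd12 (0.139), Vstm4 and Msrb1 (spread 0.296). For Atf4 (Bscl2, Paip2b and Anapc16) and Ppp1r15a (Lgals8, Sephs2 and Med8) the nearest differences, 0.113 and 0.101, were more than 59% of the small spreads of 0.184 and 0.170. The libraries share genotype and cell makeup, so these distances describe the pattern across 3 genotypes and carry no test.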

How the data were processed

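Per the labels' protocols, TruSeq libraries were built from islet RNA freed of ribosomal RNA by Ribo-Zero. The authors deposited estimated counts per gene symbol for 18 libraries, not normalised, of which 39.2% of the values above 0 are not whole. STAR, HTSeq, GRCm38 and mm10 are named per the submitters' processing notes. For the annotation, the strand setting and the step behind the fractional values, the entry is "not given in the sources used here". No 2 libraries of a genotype were copies of each other (chi-square over degrees of freedom from 26.6 to 259 in 45 pairs). The numbers in names such as hIAPP 6 follow the order of the labels and pair nothing.

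Counts were rounded to whole numbers, filtered with filterByExpr (20244 genes kept) and scaled by TMM factors. A model with 1 mean per genotype was fitted to all 18 libraries in edgeR 4.0.16 (R 4.3.3). Quasi-likelihood F tests were two-sided, and adjusted p denotes Benjamini-Hochberg adjustment over all tested genes, called under 0.05. Log2 CPM used a prior count of 2. The pipeline was tested on simulated data. The members, gene lists, motifs and tests were chosen with earlier results of these data known, and the lists come from textbook knowledge. Named are all 10 regulators, up to 4 genes with the smallest p of each list described, close relatives, and 3 nearest genes per regulator among named genes with a mean of at least 1 CPM. Alternatives were DESeq2 1.42.0, limma-voom (limma 3.58.1), RLE factors, library totals only, other filters and thresholds, removal of the 10 most abundant genes, only the 2 genotypes compared, an acinar score as covariate, and leaving out libraries. The macrophage score as covariate was added after seeing the data. A score is the mean log2 CPM of a marker list. Overlaps with other genes come from GENCODE M21, promoter windows from RefSeq (GRCm38.p6). Plots used Python 3.11.15 and matplotlib 3.10.9.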

Additional observations from a re-analysis of the deposited data

Results flagged for a closer look

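In 30 groups of 6 libraries (10 regulators in 3 genotypes), a single library stood apart from the rest in 2, judged on log2 CPM. Gaps on the unlogged CPM scale were not examined and could flag other libraries. For Trib3 in hIAPP, the log2 gap between hIAPP 6 (21.0 CPM) and the next library was 0.684 of the log2 range of the group. For Ppp1r15a in rIAPP, the log2 gap between rIAPP 4 (51.0 CPM) and the next library was 0.677 of the log2 range. The critical value used for a group of 6 is passed by chance in about 5% of groups, which is close to the share seen here.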

How the results depend on the processing

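The 30 log2 fold changes of the regulators were recomputed under 24 alternatives, and 638 of the 720 values kept their direction and their side of the threshold. Leaving aside the acinar and macrophage covariates, 611 of 660 did, 35 lost the call, 11 gained one and 3 changed direction. The count of regulators higher in hIAPP than WT, 9, was 4 with the acinar and 0 with the macrophage covariate. The same count was 8 at an adjusted p under 0.01, 10 with library totals only and 10 without hIAPP 2. That of regulators higher in hIAPP than rIAPP, 2, was 4 with the acinar covariate, 0 with the macrophage covariate and 1 without hIAPP 5 and hIAPP 6. The count lower in hIAPP than rIAPP, 0, was 1 with the macrophage covariate (Atf3), 1 without hIAPP 5 and hIAPP 6 (Sesn2), and 0 to 1 when single libraries were left out (1 without hIAPP 6). The count higher in rIAPP than WT, 10, was 6 at an adjusted p under 0.01 and 2 with the acinar covariate. It was 6 to 9 when single libraries were left out, with 6 without rIAPP 4. With the macrophage covariate it stayed at 10, beside 2899 of all tested genes. The macrophage scores of rIAPP and WT do not overlap, so that fit cannot tell genotype from macrophage content. With the macrophage covariate, log2 fold changes against WT turned to -1.61 (Atf3), -0.15 (Atf5) and -0.15 (Ppp1r15a) in hIAPP. Against rIAPP they turned to -0.10 (Atf4), -0.43 (Ddit3), -1.33 (Trib3), -2.89 (Atf3, edgeR adjusted p = 0.0131), -1.18 (Atf5), -2.01 (Chac1), -2.71 (Nupr1) and -0.30 (Cebpb). Without hIAPP 5 and hIAPP 6, hIAPP against rIAPP turned to -0.078 (Atf5) and -0.032 (Nupr1), and without hIAPP 6 to -0.0013 (Atf4). The cause was not tested. Library totals without TMM factors moved the median of all genes to 0.11 in hIAPP and 0.10 in rIAPP against WT, with 3139 higher and 480 lower in hIAPP (1683 and 1525 with TMM) and 4554 and 1404 in rIAPP (2860 and 2557), and turned no regulator's direction. No paired analysis was possible because the labels pair no mice across genotypes. The lowest regulator value, Trib3 in WT 6, rests on 95 counts, a counting error of 10.3%, against an SD of 32.9% of the mean between WT mice.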
